A study of Homo sapiens with 16 samples.

Results

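The comparison described here was methyl methanesulfonate (MMS) given to sorafenib-treated MDA-MB-231 cells, against sorafenib alone, at 8 h. It used 4 of the 16 RNA-seq libraries of the series, chosen by their treatment labels, and every gene in them: 2 libraries of the combination and 2 of sorafenib alone. MDA-MB-231 is a line from a human breast tumour, without the oestrogen receptor and of mesenchymal character. The sorafenib group was kept in 1 µM sorafenib for 8 h, and the combination group had 1 µM sorafenib for 12 h and then MMS for 8 h. The other libraries of the series had DMSO or MMS alone for 8 or 24 h, or sorafenib alone for 24 h. The rest had sorafenib for 12 h and then MMS for 24 h. For MMS the series text gives 40 µg/mL where the sample labels give 40 µM, and the difference could not be settled. The combination cells had sorafenib for up to 20 h, so that MMS and the longer sorafenib exposure cannot be told apart in this contrast alone. Each group held 2 libraries, 1 from each of 2 experiments that the series text calls independent, all from 1 cell line. Replicate 1 below is the library whose title starts with MDA231, replicate 2 the one whose title starts with MDAMB231, and values are given in that order. The study's title places the question in inflammation and angiogenesis under low-dose sorafenib and alkylating agents.

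MMS transfers methyl groups to DNA bases, and also to RNA and to proteins. Methylated bases are removed mainly by base excision repair or reversed directly, and lesions that remain stall replication and engage checkpoint kinases. Sorafenib inhibits several kinases, among them RAF kinases and the receptors for VEGF and PDGF. Cells under protein or amino acid stress phosphorylate the initiation factor eIF2, which lowers translation in general but favours the transcription factor ATF4, the centre of the integrated stress response. Misfolded protein in the endoplasmic reticulum (ER) engages the unfolded protein response through XBP1, ATF6 and PERK, and oxidants or electrophiles release the transcription factor NRF2 from KEAP1.

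The 4 libraries held between 16777363 and 21984495 reads counted in genes, and the 16 libraries between 16774156 and 26448212. Levels are CPM, counts relative to the library's total scaled by TMM factors, and changes are log2 ratios of the combination to sorafenib ± SE. A gene is said to have risen or fallen where edgeR's quasi-likelihood test gave a Benjamini-Hochberg adjusted p under 0.05 over the 13948 genes tested. Over these 4 libraries the first principal component held 52.4% of the variance and separated the treatments, and the second held 38.2% and separated the title starts. Markers of a basal, mesenchymal line summed to 7540 and 8560 CPM with sorafenib and to 5780 and 6660 CPM in the combination, and 4 of their 12 genes fell, or 8 with the title start as a block in the test. Luminal markers summed to 1560 and 1430 CPM with sorafenib and 1590 and 1380 CPM in the combination, with the oestrogen receptor gene ESR1 at 3 and 4 counts and at 2 and 2 counts. Of the luminal markers 1 of 19 rose (XBP1) and 3 fell, or 2 and 5 with the block. Fibroblast and endothelial markers summed to 46.0 and 40.7 CPM with sorafenib and 32.9 and 32.7 CPM in the combination, with 1 of 9 fallen, or 2 with the block. Leukocyte markers summed to 107 and 140 CPM with sorafenib and 102 and 117 CPM in the combination, with 1 of 5 risen, and the B cell gene MS4A1 was at 0 counts. The 1 leukocyte rise was lost without any 1 library, and with the block 1 leukocyte marker rose and 2 fell. The part of these markers in the results was not tested.

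The combination differed from sorafenib in 3420 of 13948 genes, or 24.5%. Of these 1809 rose, which is 13.0% of the genes tested, and 1611 fell, which is 11.6%. At least 2-fold, 381 genes (2.73%) rose and 362 (2.60%) fell. The median change was 0.62 on the log2 scale among the risen genes and -0.64 among the fallen. Counting the title start as a block raised the calls to 5545 (39.8%; 2878 higher and 2667 lower), which included all 3420. Leaving out 1 library lowered them to 1984 without sorafenib replicate 1, 2264 without sorafenib replicate 2, 2253 without combination replicate 1 and 2971 without combination replicate 2.

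Because the combination had more sorafenib time than its reference, its libraries were also set against the sorafenib libraries of 24 h. Both combination libraries lay outside all 4 sorafenib libraries of 8 h and 24 h, on the same side, for 3282 of the 3420 genes (96.0%). These genes were chosen for differing from the 8 h libraries, so that lying outside those was largely given by the choice. Over all genes tested, both combination libraries lay above both 8 h sorafenib libraries in 31.1% and below them in 27.0%. Against 24 h of sorafenib 5111 genes were called (36.6%), 19.4% higher and 17.3% lower. Of the 3420, 2927 (85.6%) were called in the same direction and 39 had the opposite sign. Sorafenib at 24 h against 8 h moved 485 genes (3.48%; 1.60% higher and 1.88% lower), of which 213 were among the 3420 and 52 of those moved the same way.

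Gene lists are described by how many measured members rose or fell, to be read against 13.0% rising and 11.6% falling among all genes, whose median change was 0.02. Counts with the title start as block are to be read against 20.6% rising and 19.1% falling. The lists were chosen with earlier results of these data known, so that high shares may in part be given by the choice. Among the 32 lists of pathways and complexes, those with the highest share of risen members were integrated stress response regulators (79.2%), amino acid transporters (64.3%), NRF2 targets (61.8%), ER folding genes (58.8%) and amino acid synthesis enzymes (53.3%). The highest shares of fallen members were in mitosis genes (81.5%), YAP and TEAD targets (52.6%), phosphodiesterases (42.9%) and angiogenic factors with their inhibitors (41.7%).

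**Figure D1:**
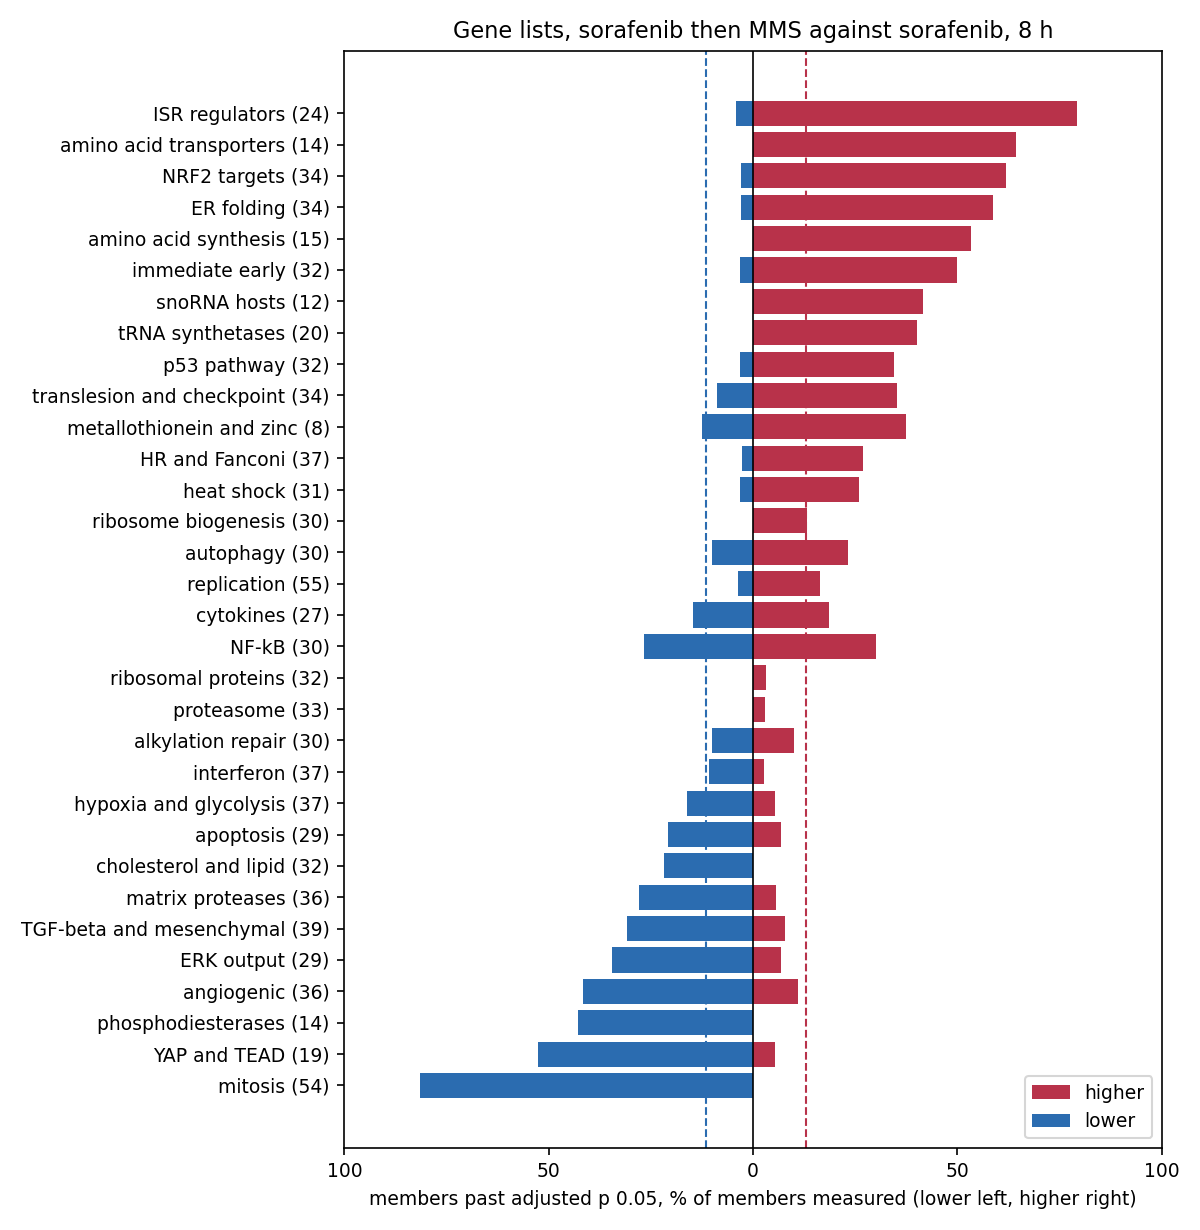
Share of the measured members of each list that rose (red, to the right) or fell (blue, to the left) at 8 h in the combination against sorafenib, in percent, with the number of members measured in brackets. The dashed lines mark the shares over all genes tested, 13.0% rising and 11.6% falling. Stress lists lie at the top with up to 79.2% risen, and mitosis lies at the bottom with 81.5% fallen and 0 risen.

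Some lists had other counts when the combination was set against 24 h of sorafenib, which is nearer to its own sorafenib time than 8 h. Against 24 h, 19.4% of all genes rose and 17.3% fell, and the counts below are to be read against these shares. Ribosome biogenesis genes, 4 of 30 risen against 8 h of sorafenib, had 23 risen and 0 fallen against 24 h, with a median change of 0.67, and replication genes went from 9 of 55 risen to 21. Cytokine genes, 5 risen and 4 fallen of 27 with a median of 0.18, had 5 risen and 10 fallen with a median of -0.17. Interferon genes, 1 risen and 4 fallen of 37, had 0 risen and 11 fallen with a median of -0.35. Hypoxia and glycolysis genes went from 2 risen and 6 fallen of 37 to 0 and 10, and autophagy genes from 7 risen and 3 fallen of 30 to 4 and 8. Heat shock genes went from 8 risen of 31 to 15, tRNA synthetases from 8 of 20 to 13, metallothionein and zinc genes from 3 of 8 to 5, and phosphodiesterases from 6 fallen of 14 to 10. Apoptosis genes had 8 risen and 8 fallen of 29, and alkylation repair genes 8 and 4 of 30. The integrated stress response, with 18 risen of 24, and mitosis, with 48 fallen of 54, had counts close to those against 8 h. These comparisons share the combination libraries.

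Genes that regulate or carry out the integrated stress response rose together. Of 24 measured, 19 rose and 1 fell, with a median change of 1.52, and the count of risen members was 17 or 18 without any 1 library. SESN2, a stress-induced inhibitor of the growth kinase complex mTORC1, was at 13.1 and 15.7 CPM with sorafenib and 117 and 104 CPM in the combination. Its change was 2.94 ± 0.12 (adjusted p = 2.4e-07), and the groups lay far apart. Over all genes tested, both combination libraries lay above both sorafenib libraries in 31.1% of cases and below them in 27.0%, so that a lack of overlap alone is common. Most genes named here and below were also chosen for a lack of overlap. For these it was given by the choice and only describes the libraries.

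ATF3, a transcription factor of the same pathway, was at 7.84 and 7.85 CPM with sorafenib and 86.3 and 82.8 CPM in the combination, a change of 3.43 ± 0.23 (adjusted p = 3.17e-06). CHAC1, an enzyme that degrades glutathione, went from 8.55 and 8.57 CPM to 114 and 83.1 CPM, a change of 3.53 ± 0.33 (adjusted p = 2.42e-05). In both genes the sorafenib replicates were nearly equal, and both combination libraries lay far above them. DDIT3, which encodes the death-associated factor CHOP, was at 16.8 and 21.4 CPM and 87.5 and 75.9 CPM, a change of 2.10 ± 0.18 (adjusted p = 1.31e-05). TRIB3, a pseudokinase that restrains AKT and ATF4, was at 45.2 and 54.1 CPM and 348 and 275 CPM, a change of 2.65 ± 0.14 (adjusted p = 1.08e-06). In both genes the lower combination library was above 3 times the higher sorafenib library.

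ADM2, a peptide of the calcitonin family, changed by 3.23 ± 0.20, and CEBPG, the partner of ATF4 in DNA-bound dimers, by 1.46 ± 0.098. DDIT4, an mTORC1 inhibitor, rose from 74.0 and 55.6 CPM to 289.8 and 201 CPM, a change of 1.92 ± 0.21 (adjusted p = 6.24e-05). It is 1 of the genes whose call ended against 24 h of sorafenib, where its libraries were at 228 and 193 CPM and the change was 0.22 (adjusted p = 0.435). ATF4 itself and EIF2AK4 fall outside the rule for naming genes and were singled out after their values were seen. ATF4 was at 167 and 148 CPM with sorafenib and 410.2 and 335 CPM in the combination, a change of 1.24 ± 0.17 (adjusted p = 0.000309). EIF2AK4, the eIF2 kinase GCN2 that senses uncharged tRNA, was the only fallen member of this list, with a change of -0.80 ± 0.12 (adjusted p = 0.000439).

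Genes that supply amino acids moved the same way. Of 15 synthesis enzymes 8 rose and 0 fell (median 0.72), of 14 amino acid transporters 9 rose and 0 fell (median 0.48), and of 20 aminoacyl-tRNA synthetases 8 rose and 0 fell (median 0.13). Without combination replicate 2 the transporters' count was 6, where the whole comparison gave 9. The synthetases' count was 5 without sorafenib replicate 2 or without combination replicate 1, where it gave 8. SLC7A11, the cystine importer that feeds glutathione synthesis, was at 163 and 137 CPM with sorafenib and 886 and 805 CPM in the combination, a change of 2.50 ± 0.37 (adjusted p = 0.000432). Its partner chain SLC3A2 was at 339 and 321 CPM and 823 and 627 CPM, a change of 1.14 ± 0.13 (adjusted p = 8.05e-05). For both genes the groups did not overlap.

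Among enzymes, CTH, which makes cysteine from cystathionine, was at 32.4 and 31.1 CPM and 124 and 95.7 CPM, a change of 1.79 ± 0.23 (adjusted p = 0.000184). GPT2, a mitochondrial alanine aminotransferase, changed by 1.45 ± 0.10, and MTHFD2, a mitochondrial one-carbon enzyme, by 1.14 ± 0.13. SLC1A4, a carrier of alanine and serine, changed by 1.90 ± 0.24, and SLC6A9, a glycine carrier, by 1.37 ± 0.16. Tryptophanyl-tRNA synthetase WARS changed by 0.70 ± 0.089 and its cysteinyl counterpart CARS by 0.83 ± 0.11. YARS, the tyrosyl enzyme, changed by 0.53 ± 0.13 (adjusted p = 0.0111), and its call was lost without sorafenib replicate 2 (0.0737) and without combination replicate 1 (0.117).

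Promoters of these groups are shown because ATF4 binds a composite element with a C/EBP partner. The letters TGATGNAA were searched on both strands in windows of RefSeq (GRCh38.p14) from 250 bases before to 50 after each start site. They were in 3.62% of all 35116 windows and at 4.46% of all 27305 genes in that table. Of the integrated stress response list 4 of the 21 genes with a promoter held them (19.0%), as did 6 of 13 transporters (46.2%). Promoters were matched for too few of the synthesis enzymes, the synthetases and the genes tested as a whole to give a share. The 250 bases before the start of CEBPG (chr19:33373863-33374112, plus strand) and of CHAC1 (chr15:40953221-40953470, plus strand) are printed 5′ to 3′ on the strand of the gene, with the match in capitals. In CHAC1 the match is on the opposite strand, so that its reverse complement is seen.
CEBPG: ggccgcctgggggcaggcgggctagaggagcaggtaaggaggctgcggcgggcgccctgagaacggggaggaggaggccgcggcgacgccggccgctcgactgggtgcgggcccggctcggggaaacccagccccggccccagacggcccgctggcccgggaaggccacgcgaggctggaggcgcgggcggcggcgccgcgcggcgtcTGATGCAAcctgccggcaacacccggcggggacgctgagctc
CHAC1: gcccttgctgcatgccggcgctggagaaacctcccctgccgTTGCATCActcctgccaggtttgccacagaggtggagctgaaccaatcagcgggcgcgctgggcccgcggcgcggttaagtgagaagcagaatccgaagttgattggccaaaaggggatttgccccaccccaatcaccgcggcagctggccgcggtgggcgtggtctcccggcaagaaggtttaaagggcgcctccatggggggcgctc
The match begins 42 bases before the start in CEBPG and 209 before it in CHAC1. A match is a run of letters, not a measured binding site.

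Genes for folding and clearing proteins in the ER rose as a group. Of 34 measured, 20 rose and 1 fell, with a median change of 0.37, and 13 rose without sorafenib replicate 2 or without combination replicate 1. HSPA5, the main ER chaperone BiP, was at 1033 and 837 CPM with sorafenib and 3194 and 2817 CPM in the combination, a change of 1.68 ± 0.11 (adjusted p = 2.34e-06). Both combination libraries were above both sorafenib libraries, by far more than the replicates differed. XBP1, whose spliced RNA encodes a transcription factor of the unfolded protein response, was at 80.6 and 78.1 CPM and 287 and 253 CPM, a change of 1.77 ± 0.097 (adjusted p = 1.08e-06). Gene counts do not separate its spliced and unspliced forms. HERPUD1, a membrane protein of ER-associated degradation, was at 42.8 and 42.7 CPM and 231 and 199 CPM, a change of 2.33 ± 0.13 (adjusted p = 1.08e-06).

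DNAJB9, a BiP co-chaperone, was at 28.8 and 26.1 CPM and 103 and 92.0 CPM, a change of 1.83 ± 0.12 (adjusted p = 2.34e-06). The secreted folding factor MANF changed by 0.95 ± 0.11 and the oxidase ERO1LB by 1.27 ± 0.14. Its relative ERO1L was the only fallen member, at -0.40 ± 0.11 (adjusted p = 0.0188), and is named here because of that count. The other changes among risen members lay between 0.27 for the isomerase PDIA3 and 1.08 for SDF2L1, a stress-inducible ER protein.

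The ER stress response element (the letters CCAAT, then 9 bases of any kind, then CCACG) was searched in the same windows and on both strands, since it lies before several chaperone genes. It was in 27 of 35116 windows (0.0769%) and at 25 of 27305 genes (0.0916%). In the ER folding list 8 of the 31 genes with a promoter held it (25.8%), and 6 of the 18 risen ones (33.3%). The upstream 250 bases of XBP1 (chr22:28800570-28800819, minus strand) and HSPA5 (chr9:125241344-125241593, minus strand), 2 of the members with the smallest p, carry the match in capitals.
XBP1: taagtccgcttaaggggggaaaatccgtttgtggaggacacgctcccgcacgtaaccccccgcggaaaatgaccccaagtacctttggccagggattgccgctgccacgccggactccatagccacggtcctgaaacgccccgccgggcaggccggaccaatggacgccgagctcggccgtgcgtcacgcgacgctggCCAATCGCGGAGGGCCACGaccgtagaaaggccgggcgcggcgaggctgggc
HSPA5: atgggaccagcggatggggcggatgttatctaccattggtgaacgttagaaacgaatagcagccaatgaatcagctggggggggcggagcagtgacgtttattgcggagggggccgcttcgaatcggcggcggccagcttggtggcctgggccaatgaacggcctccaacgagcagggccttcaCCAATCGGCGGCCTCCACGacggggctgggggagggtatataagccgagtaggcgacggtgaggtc
Its first base lies 52 bases before the start in XBP1 and 66 before it in HSPA5.

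NRF2 targets, which detoxify electrophiles and make glutathione and NADPH, rose in 21 of 34 cases with 1 fall and a median change of 0.60. HMOX1, haem oxygenase 1, was at 10.8 and 14.9 CPM with sorafenib and 178 and 145 CPM in the combination. The change was 3.66 ± 0.22 (adjusted p = 1.99e-06), and the gap between the groups was many times that between replicates. NQO1, a quinone reductase, was at 107 and 94.1 CPM and 306 and 268 CPM, a change of 1.51 ± 0.10 (adjusted p = 3.1e-06).

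TXNRD1, thioredoxin reductase, was at 835 and 743 CPM with sorafenib and 2583 and 2366 CPM in the combination, a change of 1.65 ± 0.12 (adjusted p = 4.08e-06). GCLM, a subunit of the enzyme that starts glutathione synthesis, was at 58.2 and 63.9 CPM and 184 and 192 CPM, a change of 1.62 ± 0.11 (adjusted p = 3.6e-06). For all 4 of these genes the groups did not overlap. OSGIN1, an oxidative stress-induced growth inhibitor, changed by 3.37 ± 0.29, and SRXN1, sulfiredoxin, by 1.76 ± 0.13. The locus LOC344887 had 2 and 2 counts with sorafenib and 121 and 154 in the combination, a ratio of 80.0 (95% interval from counting error only 30.9 to 296). ABCC1, a glutathione-conjugate efflux pump, was the only fallen member, at -0.84 ± 0.082 (adjusted p = 2.98e-05), and is named because of that count.

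**Figure D2:**
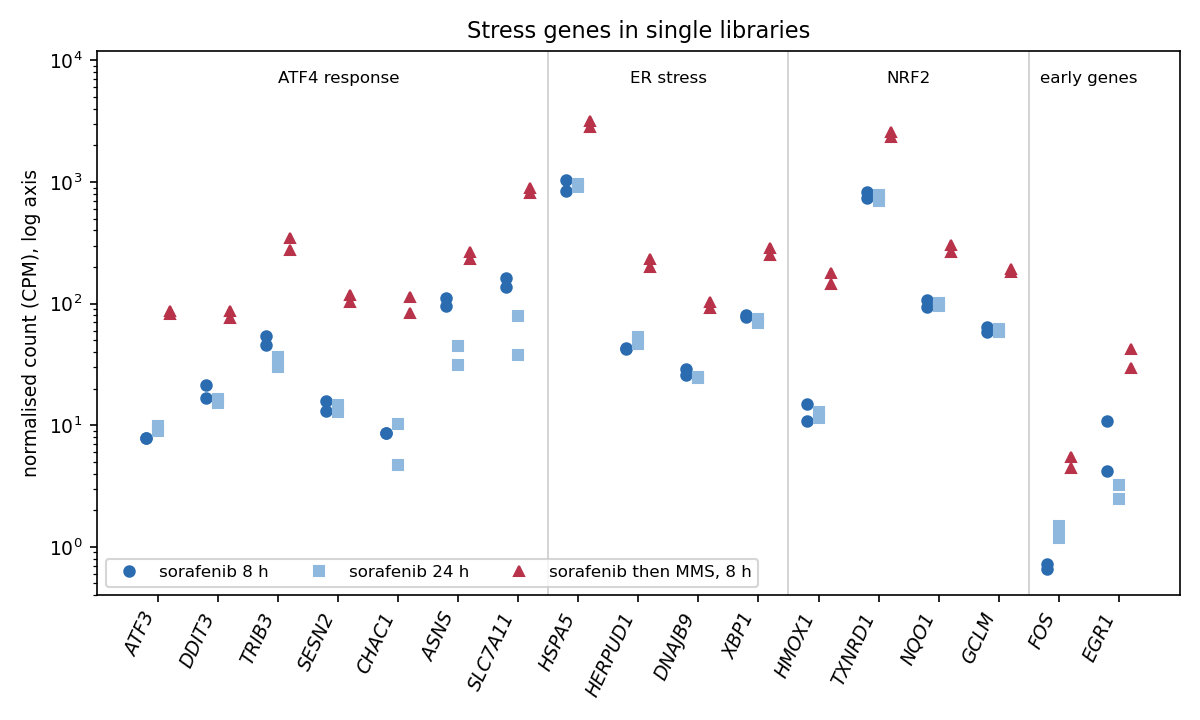
Normalised counts (CPM, log axis) of 17 stress genes in single libraries: sorafenib for 8 h (dark circles), sorafenib for 24 h (light squares) and sorafenib then MMS at 8 h (red triangles), 2 libraries each. The combination libraries lie above both sets of sorafenib libraries for every gene drawn, as for HSPA5 with 3194 and 2817 CPM against 1033 and 837 CPM at 8 h.

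Cytosolic heat shock genes moved less uniformly: 8 of 31 rose and 1, HSPA4L, fell, with a median change of 0.23. With the title start as block 15 rose and 1 fell, where 20.6% of all genes rose and 19.1% fell. HSPA1A, an inducible HSP70 gene, was at 15.7 and 17.8 CPM with sorafenib and 33.3 and 32.8 CPM in the combination, a change of 0.98 ± 0.12 (adjusted p = 0.000125). It shares nearly all its sequence with HSPA1B (0.80 ± 0.12), so the split of reads between them is uncertain. DNAJB1, a co-chaperone of HSP70, was at 271 and 271 CPM and 378 and 345 CPM, a smaller change of 0.42 ± 0.072 (adjusted p = 0.0013). The groups did not overlap in either gene.

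Of 8 genes of metallothioneins and zinc handling 3 rose and 1 fell. The zinc exporter SLC30A1 rose by 0.89 ± 0.11 and the zinc importer SLC39A10 fell, with a change of -1.11 ± 0.16. Autophagy genes split 7 risen to 3 fallen of 30, 10 to 6 with the block, and 1 fallen without combination replicate 1 or either sorafenib replicate. Among them the conjugation factor ATG12 changed by 1.34 ± 0.099 and MAP1LC3B, the LC3 protein of the autophagosome membrane, by 1.08 ± 0.095. MAP1LC3B was at 81.9 and 90.4 CPM with sorafenib and 177 and 187 CPM in the combination, with no overlap. GABARAPL1, a relative of LC3, changed by 1.15 ± 0.17, but by 0.19 against 24 h of sorafenib (adjusted p = 0.402).

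Immediate early genes, which answer growth factor and stress kinases within minutes to hours, rose in 16 of 32 cases and 1, FOSL2, fell (median 0.71). Without sorafenib replicate 1 the count was 10. FOS, a subunit of the AP-1 factor, was at 0.657 and 0.718 CPM with sorafenib and 4.49 and 5.51 CPM in the combination, a change of 2.85 ± 0.34 (adjusted p = 9.62e-05). DUSP1, a phosphatase that switches off p38, JNK and ERK, was at 74.2 and 60.02 CPM and 175 and 138 CPM, a change of 1.22 ± 0.16 (adjusted p = 0.000179). MCL1, a short-lived survival protein of the BCL2 family, changed by 0.52 ± 0.064, and CTGF, a matricellular protein, by 1.17 ± 0.15. In each of these 4 genes the 2 combination libraries were above both sorafenib libraries.

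MDA-MB-231 carries a mutant p53, and many genes of the p53 pathway also answer other stress signals. Of 32 measured, 11 rose and 1, PLK2, fell, with a median change of 0.24. GADD45A, a growth arrest gene, was at 62.0 and 78.6 CPM with sorafenib and 263 and 259.9 CPM in the combination, a change of 1.89 ± 0.18 (adjusted p = 2.51e-05). GDF15, a stress-induced secreted factor, was at 6.34 and 7.18 CPM and 46.5 and 34.1 CPM, a change of 2.58 ± 0.32 (adjusted p = 0.000152). Groups were apart in both. The death receptor TNFRSF10B changed by 0.47 ± 0.072 and the BH3-only protein PMAIP1 by 0.63 ± 0.079. CDKN1A, the cyclin-dependent kinase inhibitor p21, was at 39.3 and 81.7 CPM and 174 and 227 CPM, a change of 1.73 ± 0.50 (adjusted p = 0.0237). Its sorafenib replicates differed about 2-fold, and the call was lost without combination replicate 1 (0.0501), combination replicate 2 (0.0976) or sorafenib replicate 1 (0.178).

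Apoptosis genes gave 2 rises and 6 falls of 29, with a median of 0.05 and a mean of -0.09, 7 rises and 7 falls with the block, and 3 falls without sorafenib replicate 1. The counts with the block were 24.1% each, near the 20.6% and 19.1% of all genes. TNFRSF21, death receptor 6, fell from 255 and 245 CPM to 110.5 and 126 CPM, a change of -1.08 ± 0.088 (adjusted p = 8.46e-06). The survival gene BCL2L1 had a change of -0.53 ± 0.083 and the BH3-only gene BMF of -1.92 ± 0.29. All 3 were lower in both combination libraries.

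Genes of alkylation and base excision repair gave 3 rises and 3 falls of 30 (10.0% each), with a median of 0.04. With the block 7 rose and 4 fell, where 20.6% and 19.1% of all genes did, and without combination replicate 1 the counts were 1 and 4. MBD4, a glycosylase for mismatched thymine and uracil, was at 39.2 and 41.4 CPM with sorafenib and 60.4 and 60.4 CPM in the combination, a change of 0.58 ± 0.08 (adjusted p = 0.000271). TDP1, which removes trapped topoisomerase I, was at 82.2 and 86.3 CPM and 51.2 and 54.2 CPM, a change of -0.68 ± 0.078 (adjusted p = 8.65e-05). The groups were apart in both genes. The ligase LIG3 had a change of -0.68 ± 0.13 and its scaffold XRCC1 of -0.46 ± 0.11 (adjusted p = 0.00767; 0.0529 without sorafenib replicate 2).

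The dealkylating enzymes ALKBH1 and ALKBH2 changed by 0.51 ± 0.13 and 0.59 ± 0.13. The call of ALKBH1 was lost without combination replicate 1 (0.141) or sorafenib replicate 2 (0.129). That of ALKBH2 was lost without combination replicate 1 (0.0568) or sorafenib replicate 1 (0.0522). The glycosylase MPG, which excises methylated purines, falls outside the naming rule and is given for its role: 30.8 and 27.7 CPM with sorafenib and 36.6 and 23.4 CPM in the combination, a change of 0.03 ± 0.18 (adjusted p = 0.925). MGMT, which takes the methyl group off guanine directly, had 1 and 0 counts with sorafenib and 0 and 0 in the combination. Its 0 counts allow up to 3 counts, or 0.179 and 0.164 CPM, by counting error alone.

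Homologous recombination and Fanconi genes gave 10 rises and 1 fall of 37 (27.0% and 2.70%), or 14 and 2 with the block, the rises between 0.31 for XRCC3 and 0.68 for FANCF on the log2 scale. These calls were fragile: 3 rises were left without sorafenib replicate 1, 2 without sorafenib replicate 2, and 4 without combination replicate 1 or without combination replicate 2. Translesion and checkpoint genes gave 12 rises and 3 falls of 34 (35.3% and 8.82%). The rises numbered 5, 6, 6 and 8 without sorafenib replicates 1 and 2 and combination replicates 1 and 2. The falls numbered 1, 3, 1 and 6 in the same order. WEE1, the kinase that holds CDK1 inactive, was at 74.2 and 70.9 CPM with sorafenib and 46.2 and 41.7 CPM in the combination, a change of -0.72 ± 0.095 (adjusted p = 0.000203). GADD45B changed by 1.03 ± 0.13, and USP1, which removes ubiquitin from PCNA and FANCD2, by 0.45 ± 0.081.

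Genes expressed from late S phase to mitosis fell almost throughout. Of 54 measured, 44 fell and 0 rose (81.5% against 11.6% of all genes), with a median change of -0.59. The block gave 48 falls, and 31 were left without sorafenib replicate 1, 34 without combination replicate 1, 40 without sorafenib replicate 2 and 43 without combination replicate 2. In bulk RNA, fewer cells in these phases and less RNA per cell cannot be told apart. TOP2A, topoisomerase II alpha, was at 1068 and 885 CPM with sorafenib and 273 and 324 CPM in the combination, a change of -1.71 ± 0.13 (adjusted p = 6.36e-06). PLK1, the polo-like kinase of mitotic entry, was at 194 and 177 CPM and 86.2 and 80.3 CPM, a change of -1.16 ± 0.12 (adjusted p = 3.64e-05). CCNA2, cyclin A2, was at 272 and 279 CPM and 128 and 149.6 CPM, a change of -0.99 ± 0.1 (adjusted p = 3.64e-05). In all 3 genes the groups lay apart by more than the spread between replicates.

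CDK1, the mitotic kinase, was at 255 and 234 CPM with sorafenib and 154 and 158 CPM in the combination, a change of -0.65 ± 0.076. The cytokinesis genes ANLN and KIF20A changed by -1.14 ± 0.12 and -1.17 ± 0.12. The 10 members that did not pass the test had changes between -0.64 for GTSE1 and -0.01 for KIF22. Among them, singled out after its value was seen, the kinase gene AURKB was at 108 and 113 CPM and 110.4 and 106 CPM, a change of -0.03 ± 0.11 (adjusted p = 0.887).

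Replication genes, active from late G1 into S phase, did not share this fall: 9 of 55 rose (16.4%) and 2 fell (3.64%), with a median of 0.09. With the block 17 rose (30.9%) and 5 fell (9.09%). ORC6, an origin recognition subunit, was at 42.5 and 38.5 CPM with sorafenib and 84.7 and 81.8 CPM in the combination, a change of 1.04 ± 0.092 (adjusted p = 1.57e-05). RRM2, the S-phase subunit of ribonucleotide reductase, was at 389 and 419.5 CPM and 670.0 and 706 CPM, a change of 0.77 ± 0.081 (adjusted p = 4.78e-05). Neither gene's groups overlapped. The licensing factors CDC6 and CDT1 changed by 0.46 ± 0.072 and 0.69 ± 0.12. The 2 fallen members were MCM7 and UHRF1, at -0.38 ± 0.088 and -0.50 ± 0.098, named because of their count.

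Many genes of late cell cycle phases carry a cell cycle homology region, with the letters TTTGAA, close to their start. These 6 letters were found on either strand in 15.2% of all windows of the same length and at 18.2% of all genes in the RefSeq table. Of the mitosis list 33 of the 46 genes with a promoter held them (71.7%), and 28 of the 39 fallen ones (71.8%). The upstream 250 bases of TOP2A (chr17:40417897-40418146, minus strand) and PLK1 (chr16:23678639-23678888, plus strand), members with small p and matches before the start, have the letters in capitals. In TOP2A the second match is on the opposite strand.
TOP2A: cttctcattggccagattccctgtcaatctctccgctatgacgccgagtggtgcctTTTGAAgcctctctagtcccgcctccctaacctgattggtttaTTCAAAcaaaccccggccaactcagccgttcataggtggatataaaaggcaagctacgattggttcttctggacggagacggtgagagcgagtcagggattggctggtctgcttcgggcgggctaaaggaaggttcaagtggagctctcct
PLK1: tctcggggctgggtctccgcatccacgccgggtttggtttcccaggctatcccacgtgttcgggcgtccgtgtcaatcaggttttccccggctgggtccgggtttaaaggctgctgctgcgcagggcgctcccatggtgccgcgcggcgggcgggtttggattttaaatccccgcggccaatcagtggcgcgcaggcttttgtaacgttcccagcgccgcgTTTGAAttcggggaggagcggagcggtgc
The matches begin 194 and 151 bases before the start in TOP2A and 29 before it in PLK1. Matches of different motifs may overlap, and none shows that a factor was bound.

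The study's own question names inflammation. Of 27 cytokines, chemokines and related genes measured 5 rose and 4 fell (18.5% and 14.8%), with a median change of 0.18. With the block 9 rose and 6 fell (33.3% and 22.2%). Without combination replicate 1 the rises numbered 3. CXCL3, a chemokine that attracts neutrophils, was at 16.1 and 10.8 CPM with sorafenib and 76.8 and 70.2 CPM in the combination, a change of 2.45 ± 0.27 (adjusted p = 6.6e-05). CXCL2, from the same family, was at 21.6 and 19.0 CPM and 79.2 and 76.8 CPM, a change of 1.94 ± 0.23 (adjusted p = 0.000104). Both rose without overlap between groups. IL8 (CXCL8), another neutrophil chemokine, was at 485 and 373 CPM and 669.8 and 593 CPM, and its change of 0.56 ± 0.23 did not pass the test (adjusted p = 0.103). With the title start as block it did, at 0.57 ± 0.11 (adjusted p = 0.000519). IL6, the acute-phase cytokine, was at 59.0 and 48.4 CPM and 84.4 and 66.5 CPM, a change of 0.49 ± 0.20 (adjusted p = 0.0999). The block gave an adjusted p of 0.0249 for IL6, but against 24 h of sorafenib (123 and 90.9 CPM) the sign turned, to -0.51 (adjusted p = 0.065).

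The colony-stimulating factors went different ways. CSF1, for macrophages, was at 344 and 259 CPM with sorafenib and 139.9 and 121 CPM in the combination, a change of -1.21 ± 0.16 (adjusted p = 0.000262). CSF2 (GM-CSF) was at 38.9 and 35.7 CPM and 13.3 and 13.0 CPM, a change of -1.502 ± 0.12 (adjusted p = 8.37e-06). CSF3 (G-CSF) was at 5.73 and 7.28 CPM and 20.9 and 16.1 CPM, a change of 1.51 ± 0.18 (adjusted p = 9.97e-05). The 2 former were lower and the last was higher in both combination libraries. TNFSF10, the death ligand TRAIL, changed by -1.18 ± 0.25. PTGS2 and IL1A also rose and CCL2 also fell, at 1.79 ± 0.43, 0.93 ± 0.27 and -3.34 ± 0.72, named because they complete the counts.

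NF-kB genes split into 9 rises and 8 falls (26.7%) of 30, with a median of 0.04 and a mean of -0.07. The rises numbered 2 without sorafenib replicate 1, 5 without sorafenib replicate 2, 4 without combination replicate 1 and 6 without combination replicate 2, while the falls stayed between 6 and 8. NFKBIA, the inhibitor IkBα and itself a target of NF-kB, was at 157 and 157 CPM with sorafenib and 69.2 and 61.9 CPM in the combination, a change of -1.26 ± 0.088 (adjusted p = 3.6e-06). BIRC3, an inhibitor of apoptosis, was at 283 and 262 CPM and 88.7 and 112 CPM, a change of -1.44 ± 0.13 (adjusted p = 1.47e-05). Both were lower in every combination library. The ubiquitin editor TNFAIP3 (A20) had a change of -1.02 ± 0.13, and NFKBIB, the inhibitor IkBβ, one of 0.88 ± 0.11. Of 37 interferon genes 4 fell (10.8%), 2 without sorafenib replicate 1, and 1, IRF7, rose, a call lost without any 1 library, with IRF1 at -0.64 ± 0.099 and the RNA sensor DDX58 at -0.49 ± 0.11. With the block 4 interferon genes rose (10.8%) and 9 fell (24.3%).

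Angiogenic ligands, receptors and guidance factors, counted together with inhibitors of angiogenesis, fell in 15 of 36 cases and rose in 4 (41.7% and 11.1%). Their median change was -0.62. With the block 24 fell and 5 rose, and the rises numbered 3 without combination replicate 2 and 2 without each of the other libraries. VEGFA, the main endothelial growth factor, went the other way: 85.0 and 111 CPM with sorafenib and 214 and 214 CPM in the combination, a change of 1.13 ± 0.18 (adjusted p = 0.000782). Its combination libraries were nearly equal and about 2-fold above the sorafenib libraries. VEGFC, the lymphatic growth factor, was at 78.4 and 84.6 CPM and 44.4 and 42.7 CPM, a change of -0.90 ± 0.084 (adjusted p = 2.15e-05). THBS1, thrombospondin 1, an inhibitor of angiogenesis, was at 2827 and 2653 CPM and 785 and 886 CPM, a change of -1.71 ± 0.11 (adjusted p = 2.42e-06). The latter pair fell without overlap.

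PDGFC, a platelet-derived growth factor, had a change of -1.05 ± 0.085, the guidance factor SEMA3C -1.13 ± 0.079, the ephrin EFNB2 -0.65 ± 0.09 and the endothelin EDN2 -3.03 ± 0.58. The fall of HBEGF, an EGF receptor ligand (-0.51 ± 0.08), ended against 24 h of sorafenib (-0.06, adjusted p = 0.598). Besides VEGFA the risen members were DLL4, FGF1 and SPHK1, at 1.26 ± 0.37, 0.76 ± 0.18 and 1.01 ± 0.23, named for the count.

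**Figure D3:**
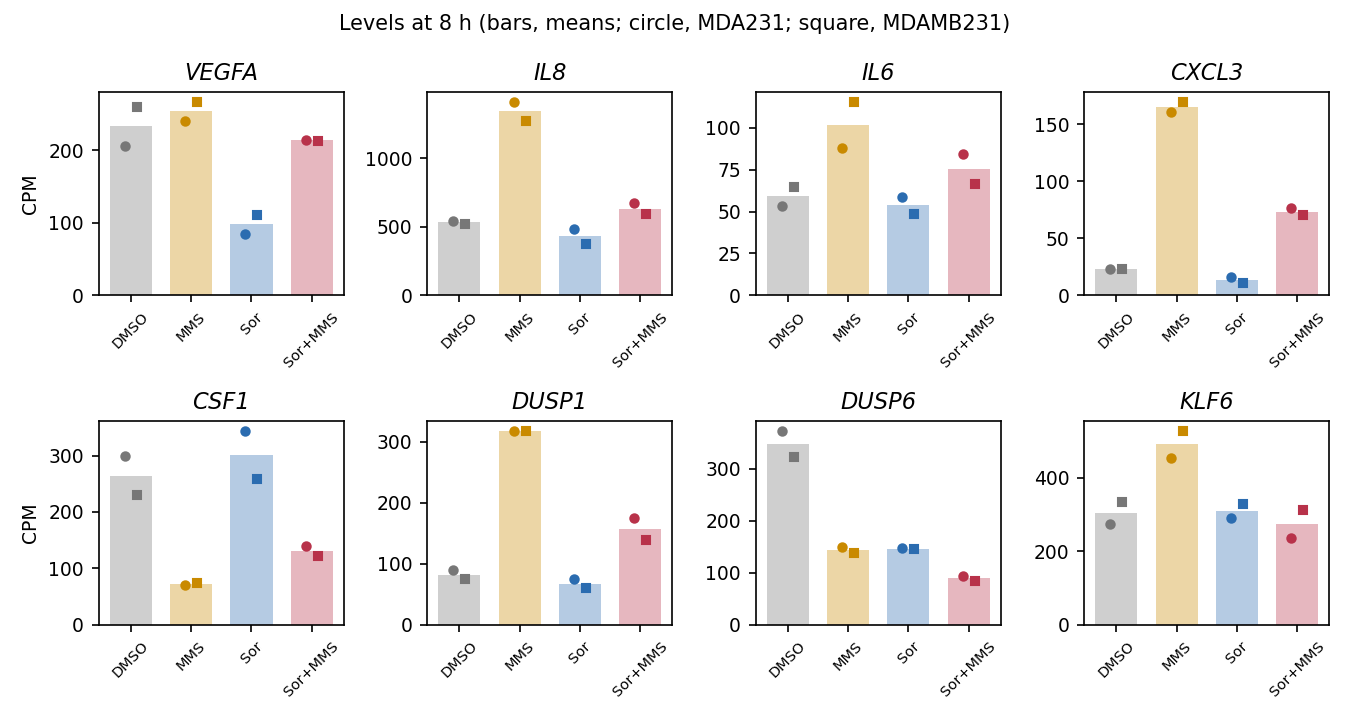
Normalised counts (CPM, linear axes from 0) of 8 genes at 8 h with DMSO, MMS alone, sorafenib and sorafenib then MMS: bars are means of 2 libraries, circles the MDA231 and squares the MDAMB231 libraries. VEGFA was low with sorafenib (85.0 and 111 CPM) and about as high in the combination (214 and 214 CPM) as with DMSO (mean 233 CPM), whereas CSF1 was low in both MMS groups.

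Outputs of the ERK pathway fell in 10 of 29 cases and rose in 2 (34.5% and 6.90%; median -0.18), or in 11 and 6 with the block. CCND1, cyclin D1, was at 877 and 989 CPM with sorafenib and 467 and 488 CPM in the combination, a change of -0.97 ± 0.087 (adjusted p = 1.65e-05). DUSP6, a phosphatase specific for ERK, was at 147 and 144 CPM and 93.0 and 84.5 CPM, a change of -0.71 ± 0.094 (adjusted p = 0.000209). ERRFI1, a feedback inhibitor of the EGF receptor, was at 238 and 327 CPM and 731 and 836 CPM, a change of 1.47 ± 0.17 (adjusted p = 8.22e-05). The 2 former fell and the last rose, each without overlap. The feedback inhibitor SPRY1 had a change of -1.83 ± 0.18. EGFR itself had -0.73 ± 0.21 (adjusted p = 0.0245), a call that was lost against 24 h of sorafenib (-0.41, adjusted p = 0.153), without sorafenib replicate 1 (0.141) and without combination replicate 1 (0.176).

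TGF-beta, BMP and mesenchymal genes fell in 12 of 39 cases and rose in 3 (30.8% and 7.69%; median -0.30), with 20 falls under the block. SMAD3, which carries TGF-beta signals to the nucleus, was at 202 and 204 CPM with sorafenib and 81.0 and 81.5 CPM in the combination, a change of -1.32 ± 0.096 (adjusted p = 4.74e-06). BMP4, a bone morphogenetic protein, was at 187 and 108 CPM and 28.4 and 20.8 CPM, a change of -2.59 ± 0.41 (adjusted p = 0.000725). LFNG, a glycosyltransferase that modifies Notch, was at 36.6 and 21.9 CPM and 5.68 and 3.65 CPM, a change of -2.65 ± 0.37 (adjusted p = 0.000316). The sorafenib replicates of BMP4 and LFNG differed more than those of SMAD3, and all combination libraries were far below them. SMAD6, an inhibitory SMAD, and the receptors TGFBR2 and TGFBR3 had changes of -2.02 ± 0.27, -1.003 ± 0.14 and -1.89 ± 0.26. The risen members SNAI1, SMAD4 and SMAD5 had 1.70 ± 0.29, 0.42 ± 0.09 and 0.41 ± 0.092, and are named for the count.

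YAP and TEAD targets fell in 10 of 19 cases and 1, CTGF, rose (median -0.31). CTGF was at 289.6 and 327 CPM with sorafenib and 728 and 655 CPM in the combination, while the YAP partner TEAD1 was at 487 and 514 CPM and 286 and 371 CPM, a change of -0.61 ± 0.10. Matrix proteases and their inhibitors fell in 10 of 36 cases (27.8%) and rose in 2 (median -0.29), with 6 falls without sorafenib replicate 1, and 14 falls and 4 rises with the block. The urokinase gene PLAU was at 189.6 and 255 CPM and 80.7 and 92.8 CPM, a change of -1.36 ± 0.24 (adjusted p = 0.00149). ADAM10, a membrane sheddase, changed by -1.004 ± 0.10, the secreted protease ADAMTS15 by -2.36 ± 0.23, and the inhibitor TIMP3 by -0.76 ± 0.11. Groups were apart in all 6 of these genes. Risen members were ADAMTS6 and MMP3, at 0.88 ± 0.21 and 1.59 ± 0.47, named for the count.

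Cyclic nucleotide phosphodiesterases, which end cAMP and cGMP signals, fell in 6 of 14 cases with 0 rises (median -0.36), and in 3 to 6 cases without any 1 library, the fewest without combination replicate 1. PDE4B was at 5.45 and 4.46 CPM with sorafenib and 0.538 and 0.382 CPM in the combination, a change of -3.42 ± 0.25 (adjusted p = 4.67e-06). PDE7B was at 17.0 and 6.26 CPM and 1.14 and 0.600 CPM, a change of -3.75 ± 0.70 (adjusted p = 0.00206). They were 2 of the 10 largest falls among genes with a mean count of at least 50. The sorafenib replicates of PDE7B differed by more than 2-fold, and the groups did not overlap in either gene. The others of these 10 not yet given were ELF3, an epithelial transcription factor, at -2.97 ± 0.51, ZNF608 at -2.88 ± 0.34, SHROOM2 at -2.35 ± 0.30 and the lipid kinase gene PIK3C2B at -2.35 ± 0.24. MYCT1 was the only one of the 10 largest rises outside the lists, at 2.65 ± 0.50.

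Cholesterol and lipid genes fell in 7 of 32 cases (21.9%), with 3 or 4 falls without sorafenib replicate 1 or without either combination replicate, and 0 rose. INSIG1, which retains the SREBP complex in the ER, was at 52.1 and 40.0 CPM with sorafenib and 26.0 and 27.1 CPM in the combination, a change of -0.79 ± 0.13 (adjusted p = 0.000745). Hypoxia and glycolysis genes fell in 6 of 37 cases and rose in 2 (16.2% and 5.41%), with the glucose carrier SLC2A1 at -0.77 ± 0.096 and the carbonic anhydrase CA12 at -1.05 ± 0.19. The 2 rises, MXI1 and KDM3A, were lost against 24 h of sorafenib, with -0.19 for MXI1 and 0.06 for KDM3A.

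Ribosome biogenesis genes rose in 4 of 30 cases (13.3%), in 10 with the block (1 fell), and in 2 with RLE factors or without any library but combination replicate 2. Host genes of small nucleolar RNAs rose in 5 of 12 cases, led by SNHG1 (191 and 159 CPM and 414 and 328 CPM, a change of 1.09 ± 0.21), in 2 without combination replicate 1 and in 3 without sorafenib replicate 1. Of 33 proteasome genes 1, PSMD7, rose (0.25 ± 0.068), and of 32 ribosomal protein genes 1, RPL10A, rose (0.32 ± 0.086). Both calls were lost without combination replicate 1 or either sorafenib replicate, and in these 2 lists 0 members fell. With the block 3 proteasome genes and 1 ribosomal protein gene rose. From the 4 libraries alone 0 members of either list rose, and without the low-count filter 0 proteasome genes did.

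The direction of change went with the length of the gene. Gene span, from the first to the last base including introns, came from GENCODE v29 for 95.4% of the genes tested. Risen genes had a median span of 22.6 kb and fallen genes one of 94.7 kb, with 32.4 kb over all genes tested. Of 519 genes of 300 kb or more 224 fell (43.2%) and 3 rose (0.578%), and of 2121 genes of 100 to 300 kb 25.4% fell and 3.77% rose. In 2705 genes under 10 kb 4.47% fell and 14.0% rose. The longest class had the lowest median count per library, 245, and the class of 100 to 300 kb had 686, against 362 under 10 kb. The part of counting depth in these shares was not tested. MMS against DMSO at 8 h, in other libraries, had 35.8% fallen and 1.73% risen at 300 kb or more.

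**Figure D4:**
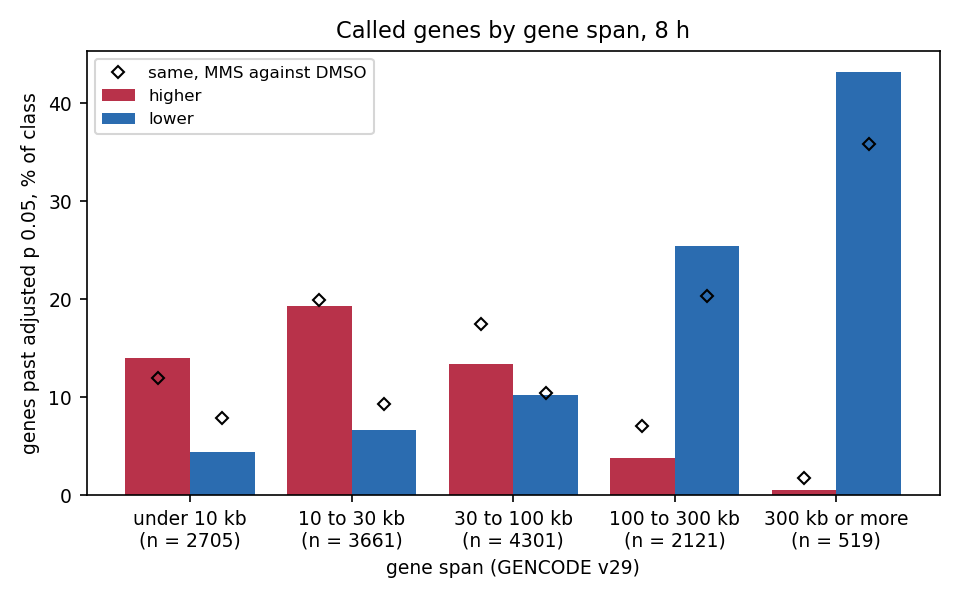
Share of genes that rose (red) or fell (blue) at 8 h in the combination against sorafenib, in percent of the genes in each class of gene span. Open diamonds give the same shares for MMS against DMSO. Falls climb from 4.47% under 10 kb to 43.2% at 300 kb or more, and rises drop from 14.0% to 0.578%.

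MMS without sorafenib, against DMSO at 8 h, used no library of the contrast above. It moved 3694 genes (26.5%). Of the genes called with sorafenib, 2616 were also called without it in the same direction, which is 76.5% of the calls with sorafenib and 70.8% of those without, and 0 in opposite directions. Over the 13948 genes the log2 changes had a correlation of 0.796. This describes genes in 1 line and the same pair of experiments and is no test. Stress genes had like values side by side: ATF3 changed by 3.43 with and 3.52 without sorafenib, HSPA5 by 1.68 and 1.804, HMOX1 by 3.66 and 3.28, and TOP2A by -1.71 and -1.55.

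The difference itself, tested as an interaction, passed for 0 of 13948 genes in edgeR's quasi-likelihood test, while 505 (3.62%) had an unadjusted p under 0.05. The longer sorafenib time of the combination enters this difference too, and its part cannot be told apart from that of MMS. DESeq2 called 1 gene, AKAP12, and without combination replicate 2 edgeR called 28, all lower. With the title start as block 7 genes passed (0.0502%), 1 higher (0.00717%) and 6 lower (0.0430%). VEGFA was the higher one: it changed by 1.13 with sorafenib and 0.12 without, a difference of 1.01 ± 0.15 (adjusted p = 0.0107 with the block). At 8 h its mean was 233 CPM with DMSO, 254 CPM with MMS, 98.1 CPM with sorafenib and 214 CPM with both, the lowest with sorafenib alone. With 24 h of sorafenib its level lay between those with 8 h of sorafenib and with both.

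KLF6, a zinc finger factor among the early genes, changed by -0.18 with sorafenib and 0.69 without, a difference of -0.88 ± 0.11 (adjusted p = 0.00241 with the block). AKAP12, a scaffold for protein kinase A, changed by 0.19 and 1.06, a difference of -0.87 ± 0.14 (adjusted p = 0.0216). DUSP1 changed by 1.22 and 1.95, with means of 317 CPM after MMS and 157 CPM after both. The protease ADAMTS1, the activin chain INHBA and the protease inhibitor TFPI2 made up the 7, with differences of -1.09, -0.75 and -0.64. Their changes were -0.41, -0.11 and 0.29 with sorafenib and 0.70, 0.66 and 0.92 without. IL8 changed by 0.56 with sorafenib and 1.34 without, and its difference did not pass even with the block (-0.76 ± 0.16, adjusted p = 0.0874).

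**Figure D5:**
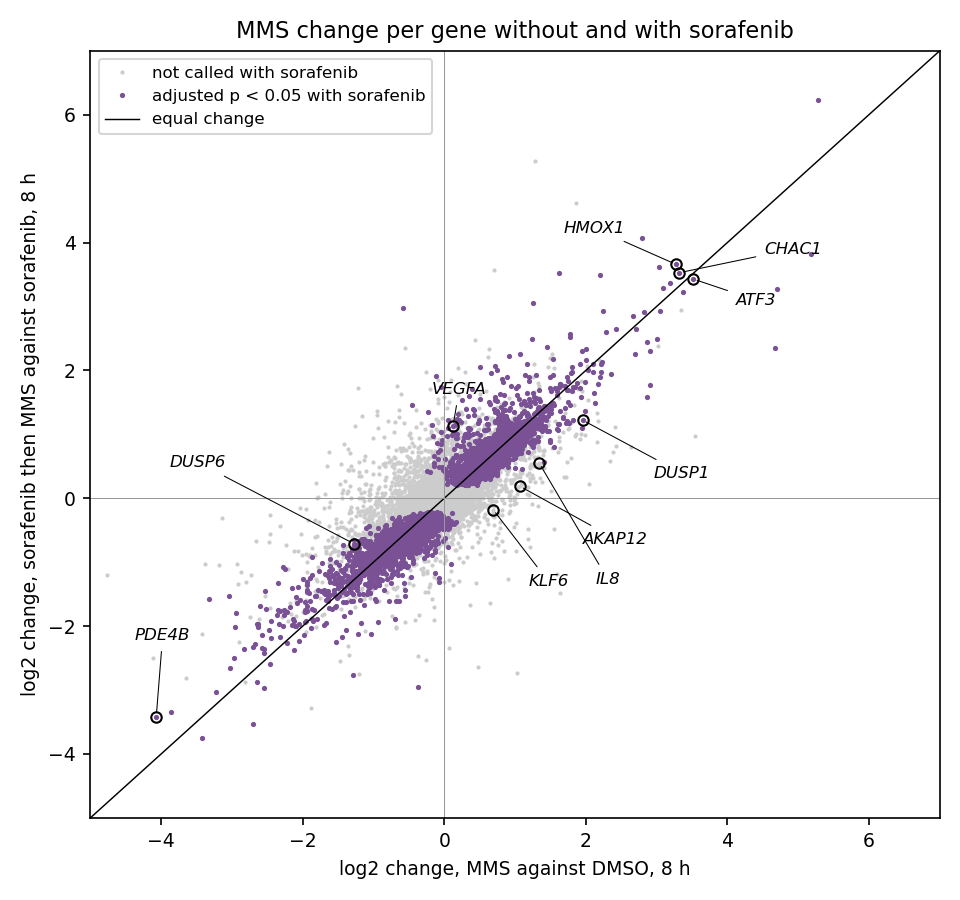
Log2 change per gene after MMS without sorafenib (x axis, against DMSO) and with it (y axis, against sorafenib) at 8 h, for all 13948 genes tested, with the 3420 called with sorafenib in purple. The line marks equal change. ATF3, CHAC1, HMOX1 and PDE4B lie near it, VEGFA lies above it (0.12 and 1.13), and KLF6, AKAP12, IL8 and DUSP1 lie below it.

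The same contrast at 24 h, combination against sorafenib, had no library in common with that at 8 h. Sorafenib time was up to 36 h against 24 h in it, and up to 20 h against 8 h in that at 8 h. Time with sorafenib and time with MMS cannot be told apart in the difference between the 2 contrasts. Of the 1809 genes that rose at 8 h, 887 also rose and 86 fell at 24 h, and of the 1611 that fell, 954 also fell and 43 rose. The test of the difference between the times called 1671 genes (12.0%), 696 higher (4.99%) and 975 lower (6.99%) at 24 h, and 4237 (30.4%) with the block. Of the 24 integrated stress response genes 14 had a lower and 2 a higher change at 24 h, and of the 34 ER folding genes 14 had a lower and 0 a higher one. Of 27 cytokine genes 12 had a lower change at 24 h and 1, CSF2, a higher one. Among mitosis genes 5 of 54 had a higher and 1 a lower change, and of the 30 ribosome biogenesis genes 13 had a higher and 0 a lower one.

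HSPA5 was at 962 and 904 CPM with sorafenib and 611 and 582 CPM in the combination at 24 h, a change of -0.65 where that at 8 h was 1.68. DDIT4 was at 228 and 193 CPM and 29.6 and 21.2 CPM, a change of -3.05 where that at 8 h was 1.92. VEGFA was at 144 and 154 CPM and 62.2 and 69.8 CPM, a change of -1.17 where that at 8 h was 1.13. In all 3 the combination was above sorafenib at 8 h and below it at 24 h. SESN2 was at 14.7 and 12.9 CPM and 13.8 and 15.8 CPM at 24 h, and the groups overlapped. NQO1 and SLC3A2 had changes at 24 h of 1.63 and 1.11 beside 1.51 and 1.14 at 8 h, and their differences between the times did not pass (adjusted p = 0.649 and 0.942).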

How the data were processed

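RNA was sequenced from 16 libraries of MDA-MB-231 cells, and the authors deposited a table of read counts per gene for each. Per the submitters' processing notes, CASAVA 1.8.2, TopHat2 2.0.8b and HTSeq were used with the hg19 build. The annotation, the strand setting and the counting mode are not given in the sources used here, so overlapping and antisense genes cannot be told apart with certainty. Of the reads in the 4 libraries compared, 29.8 to 31.5% were counted as not unique, 6.88 to 7.56% as without a feature and 1.05 to 1.10% as ambiguous. These and the other non-gene entries, 5 in all, were left out.

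The deposited counts of 23228 genes were filtered with filterByExpr, which kept 13948, and scaled with TMM. One model with a mean for each of the 8 groups was fitted over the 16 libraries (8 residual degrees of freedom) with edgeR 4.0.16 in R 4.3.3 (limma 3.58.1). The quasi-likelihood test was applied with Benjamini-Hochberg adjustment over all genes and a threshold of 0.05, and every adjusted p in the text comes from it unless another tool is named. CPM values are counts relative to the TMM-scaled total of counts in genes, and 3 counts correspond to 0.141 to 0.179 CPM. Tests were tried on simulated data: of changed genes, 53.7% were recovered at 1.5-fold, 80.6% at 2-fold and 95.5% at 4-fold for this comparison over 13859 genes. The simulated data gave 159 calls, where the real comparison gave 3420. The adjustment of p depends on how many genes change, so that these shares may differ for the real comparison.

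Replicate numbers come from the title starts, which the labels do not explain. Deviations of same-numbered libraries from their group means were correlated in all 28 pairs of groups (0.491 to 0.678; 0.594 for the groups compared), so the block is given wherever it changes the call of a named gene or moves a list's called members by over 1.5 times. The replicates come from 2 experiments in 1 line, and p-values measure the spread between these libraries. The members and gene lists were chosen with earlier results of these data known.

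The genes named are IL8, IL6, VEGFA, HMOX1, CDKN1A and MGMT, whatever their test gave, and genes that passed the test, had 50 or more counts on average in the 4 libraries and did not overlap between groups: the 10 largest rises and falls, up to 6 with the smallest p in each list with at least 2 called, and up to 8 per direction for the interaction and the time difference. Others are named to complete a count, for their role, or from the block's interaction calls, after their values were seen. Alternatives were RLE factors, DESeq2 1.42.0, other filters, the block, other sorafenib references, only the libraries compared, and leaving out each library. Promoter windows (250 bases before to 50 after each start) came from RefSeq, GRCh38.p14. Genome sequence of hg19 was not used here. Some single genes are not reported here.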

Additional observations from a re-analysis of the deposited data

Results flagged for a closer look

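The change after MMS in sorafenib-treated cells differed between 24 h and 8 h for 1671 genes in the test of the difference itself. Of these, 20 are listed below: those named for the time difference, up to 8 per direction, and IL8, IL6, VEGFA and HMOX1. Each value is the log2 change at 24 h minus that at 8 h. Other named genes passed this test too, among them ATF3 with -2.85 and CCND1 with 0.91 (adjusted p = 0.000396 and 0.00125). Lower at 24 h were DDIT4 by -4.97, HERPUD1 by -3.05, HMOX1 by -2.94, TSC22D3 by -2.94, SESN2 by -2.84, HSPA5 by -2.33, VEGFA by -2.30, XBP1 by -2.25, TRIB3 by -2.20, DNAJB9 by -1.97, IL8 by -1.92 and IL6 by -1.91. Higher at 24 h were C1orf106 by 1.96, CSF2 by 1.88, THBS1 by 1.45, ZNF238 by 1.40, SFTA1P by 1.31, RIN2 by 1.28, STARD13 by 1.06 and TMEM138 by 1.05.

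HMOX1 rose at both times, by 3.66 at 8 h and 0.71 at 24 h, as did TRIB3. SESN2 and DNAJB9 rose at 8 h and had 0.10 and -0.14 at 24 h, which did not pass the test. HERPUD1, XBP1, HSPA5, DDIT4 and VEGFA rose at 8 h and fell at 24 h, as did TSC22D3, a glucocorticoid-induced leucine zipper gene, with 2.17 at 8 h and -0.77 at 24 h. C1orf106, RIN2, ZNF238 and THBS1 fell at 8 h (-1.88, -1.47, -1.57 and -1.71) and had 0.08, -0.19, -0.17 and -0.26 at 24 h, which did not pass the test. CSF2, STARD13, TMEM138 and SFTA1P fell at 8 h and rose at 24 h, CSF2 with -1.502 and 0.38. IL6 and IL8 did not pass at 8 h and fell at 24 h. Groups of 2 libraries were too small to look for a library that stands apart.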

How the results depend on the processing

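Rises outnumbered falls in the main test, without the low-count filter and with a mean count of at least 50. Falls outnumbered rises with RLE factors (1717 and 1631) and with DESeq2 (1845 and 1650). They also did so from the 4 libraries alone (959 and 944) and without combination replicate 2. The count of 3420 changed genes was 3348 with RLE factors, 3495 with DESeq2, 3123 without the low-count filter and 3383 with a mean count of at least 50. It was 5545 with the title start as replicate block, 1903 from the 4 libraries alone (fewer samples for the spread), and 1984 to 2971 without 1 library. Against 24 h of sorafenib it was 5111 (7260 with the block), and against the mean of both sorafenib times 4989 (7090 with the block). The interaction count of 0 was 7 with the block, 1 with DESeq2 and 0 to 28 without 1 library, the 28 without combination replicate 2. At unadjusted p under 0.05 it was 505. The time count of 1671 was 4237 with the block and 754 to 1531 without 1 library, and moved by over 1.5 times without each of its libraries but the 2 combination libraries of 8 h. The cause of these shifts was not tested.

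Of the 197 genes that the naming rule gave, IL6 turned sign against 24 h of sorafenib (-0.506; -0.507 with the block) and against the mean of both times (-0.00821; -0.0094 with the block). MXI1 turned against 24 h (-0.189; -0.19 with the block), and SFTA1P did too (0.225; 0.224 with the block). DESeq2 and the stricter filter changed no call among them, RLE factors ended those of NOP56 and WDR43, and the block added those of IL6 and IL8 and changed no other. From the 4 libraries alone 32 calls ended, and 18 to 27 without 1 library. At these depths and with 2 libraries a group, 53.7% of simulated 1.5-fold changes were recovered among genes with a mean count of at least 50. The simulation held far fewer changed genes than were called in the data, so that the share may differ for the real comparison. Smaller changes, and changes in genes with fewer counts, may go uncalled.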
